A study of Mus musculus with 4 samples.

Results

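DNA methylation was examined over 5 mouse genes tied to the type 2 branch of natural killer T (NKT) cells: Gata3, Plac8 and the cytokine receptor genes Il4ra, Il21r and Il6ra. Each gene was taken as its annotated span in mm10 with 1000 bp on each side, and its members were all 100 bp windows of the authors' deposited table that overlap it. The rule found 208 windows of the 1048575 listed, and 5 of the 9572 protein-coding loci in the range of the table. The cells were thymic NKT cells of C57BL/6 mice, sorted with CD1 tetramers, from a genotype named PLZFon and from wild type (WT). Each genotype gave 1 MeDIP library, in which sheared DNA is captured by an antibody to 5-methylcytosine, and 1 input library of DNA that was not captured. What the PLZFon allele is, the age and sex of the mice, and whether animals were pooled are not stated in the labels. The libraries were told apart by their titles, since the antibody label conflicts with them: it names no antibody for PLZFon MeDIP and names the antibody for the WT input. The gene Zbtb16, which encodes the NKT factor PLZF, lies outside the table, and DNA reads do not measure gene activity, so the cell type label was not checked.

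NKT cells form subsets that resemble helper T cells, and the type 2 subset makes interleukin 4. GATA3 is the zinc finger transcription factor that directs type 2 programs. PLZF, encoded by Zbtb16, directs the development of the NKT lineage as a whole, and the series concerns how acetylation of PLZF affects it. Methylation of CpG-rich promoters goes with stable silencing, whereas the bodies of active and inactive genes are commonly methylated.

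The libraries held about 10633609 reads (PLZFon MeDIP), 15141449 (WT MeDIP), 50374582 (PLZFon input) and 60683037 (WT input), as recovered from the deposited counts and RPKM. The listed windows had no fewer than 10 MeDIP reads, summed over both genotypes, and no CpG factor under 1. The CpG factor is a score per window in that table, and it was equal to the number of CpG sites that start in the window in all 2640 windows that could be compared with a promoter sequence. Over all listed windows the depth-scaled MeDIP reads of PLZFon stood at 0.964 of WT (95% interval 0.963 to 0.966), and the inputs at 1.01. With 1 library a group there is no replicate and no test of genotype. Intervals are exact (Clopper-Pearson) 95% intervals of the binomial share, cover counting error only, and compare 2 libraries. A read reaches about 4 adjacent windows, so read numbers over a locus are window sums divided by 4.

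The first question was whether the promoters of these genes were pulled down. No listed window met the promoter at the most upstream start in the promoter table for any of the 5 genes, whereas the internal, second start of Plac8 was listed. The 250 bases before the start held 19 CpG sites at Gata3, 18 at Il6ra and 17 at Il4ra, and those of Il21r held 4. Plac8 has 2 starts in the RefSeq promoter table (GRCm38.p6), with 4 CpG sites before the first and 9 before the second. They are shown here, with CpG sites in capitals, for a CpG-rich promoter that no listed window meets (Gata3, Il4ra) and for the unlisted and the listed start of 1 gene (Plac8).
Gata3, chr2:9878601-9878850, minus strand: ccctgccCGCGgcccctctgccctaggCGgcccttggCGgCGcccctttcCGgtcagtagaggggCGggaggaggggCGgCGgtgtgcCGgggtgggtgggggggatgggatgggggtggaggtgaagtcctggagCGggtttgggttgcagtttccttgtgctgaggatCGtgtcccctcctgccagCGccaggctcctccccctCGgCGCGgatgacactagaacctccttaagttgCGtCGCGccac
Il4ra, chr7:125552021-125552270, plus strand: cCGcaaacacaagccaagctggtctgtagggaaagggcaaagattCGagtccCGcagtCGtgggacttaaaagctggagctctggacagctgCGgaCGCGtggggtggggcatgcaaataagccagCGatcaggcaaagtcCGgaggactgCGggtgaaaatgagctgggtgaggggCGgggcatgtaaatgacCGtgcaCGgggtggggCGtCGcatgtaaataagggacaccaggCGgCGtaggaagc
Plac8 first start, chr5:100572206-100572455, minus strand: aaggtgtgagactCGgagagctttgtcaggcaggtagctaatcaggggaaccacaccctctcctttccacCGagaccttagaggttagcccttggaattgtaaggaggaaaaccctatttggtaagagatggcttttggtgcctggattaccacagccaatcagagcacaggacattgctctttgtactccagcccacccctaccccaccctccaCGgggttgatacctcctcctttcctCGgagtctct
Plac8 second start, chr5:100563097-100563346, minus strand: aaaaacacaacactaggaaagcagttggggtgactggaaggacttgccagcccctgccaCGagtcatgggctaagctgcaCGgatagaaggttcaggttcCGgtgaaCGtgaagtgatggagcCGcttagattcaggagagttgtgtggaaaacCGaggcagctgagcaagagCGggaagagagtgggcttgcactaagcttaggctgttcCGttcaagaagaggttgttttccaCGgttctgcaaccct

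Across the 9786 promoters of protein-coding genes in range, 9.31% met a listed window, and the share depended on the CpG number. It was 24.5% for promoters with 3 to 5 CpG sites, the class of Il21r and of the first Plac8 start. It was 18.9% for 6 to 9 sites, the class of the second Plac8 start, and 2.34% for 15 to 19 sites, the class of Gata3, Il6ra and Il4ra. An unlisted CpG-rich promoter is thus the common case in this table. An unlisted window may still have had reads, and these promoters have no MeDIP value here. The motif searched was CG, which reads the same on both strands.

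**Figure D1:**
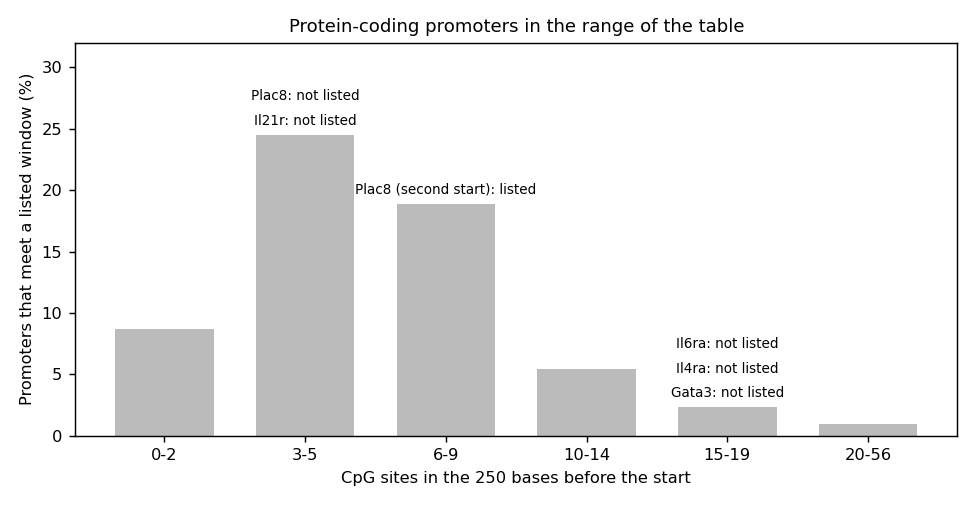
Share of protein-coding promoters that meet at least 1 listed window (vertical axis, percent) by the number of CpG sites in the 250 bases before the start (horizontal axis). The names mark the class of each start of the 5 genes: the second Plac8 start is listed and the others are not, in classes where 2.34% to 24.5% of promoters are listed.

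Gata3 (chromosome 2, 9857078 to 9887953, minus strand) was the most sparsely listed of the 5. It had 14 listed windows of 329 in its span, 0.426 per kb against a median of 1.23 over protein-coding loci, and 21.7% of loci had fewer per kb. Its 19200 bp from 9861501 to 9880700, which include the start, held no listed window. Of the 14 windows, 12 lay 17.1 to 20.5 kb downstream of the start, toward the 3′ end of the gene. The other 2 lay 2.10 to 2.30 kb upstream of it, still inside the annotated span. The gene table gives no exons, so windows were not placed in exons or introns.

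At the 3′ end of Gata3 the MeDIP reads of PLZFon were as many as those of WT before scaling, although that library was smaller. The window with the most reads (9859701 to 9859800, CpG factor 3) had 18 reads in PLZFon MeDIP and 16 in WT MeDIP, against 10 in the PLZFon input and 12 in the WT input. Its ratio of 1.60 (0.771 to 3.36) was also the highest of the windows with at least 20 reads, and the lowest was 1.10 (0.430 to 2.70) at 9859501 to 9859600. The upstream windows had 3 and 3 reads in PLZFon MeDIP against 8 and 9 in WT MeDIP. These are too few for a ratio that leaves out equality (0.534, 0.0912 to 2.22, for the one of 11 reads). With 11 and 12 MeDIP reads over both genotypes, the upstream windows stood near the listing floor of 10. They reached that floor through their WT reads, so their low ratios are no separate result.

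Over the whole Gata3 locus there were 27.8 reads in PLZFon MeDIP and 29.0 in WT MeDIP, a ratio of 1.36 (0.780 to 2.38). The inputs differed in the same direction, with a PLZFon over WT ratio of 1.53 (0.896 to 2.64). MeDIP over input was 3.87 (2.25 to 6.58) in PLZFon and 4.34 (2.48 to 7.64) in WT. The intervals of both ratios include equality and those of MeDIP over input overlap. MeDIP over input, here and below, covers listed windows alone. These were listed in part for their MeDIP reads, which raises the value, so it is no level of the whole span. The interval of the MeDIP ratio also includes a ratio of 2. A lower ratio than that of Gata3 was found at 96.4% of the 7668 protein-coding loci that reached 20 reads. The ratio was 1.14 (0.745 to 1.73) with 5000 bp on each side. The part of the input in the MeDIP value was not tested.

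**Figure D2:**
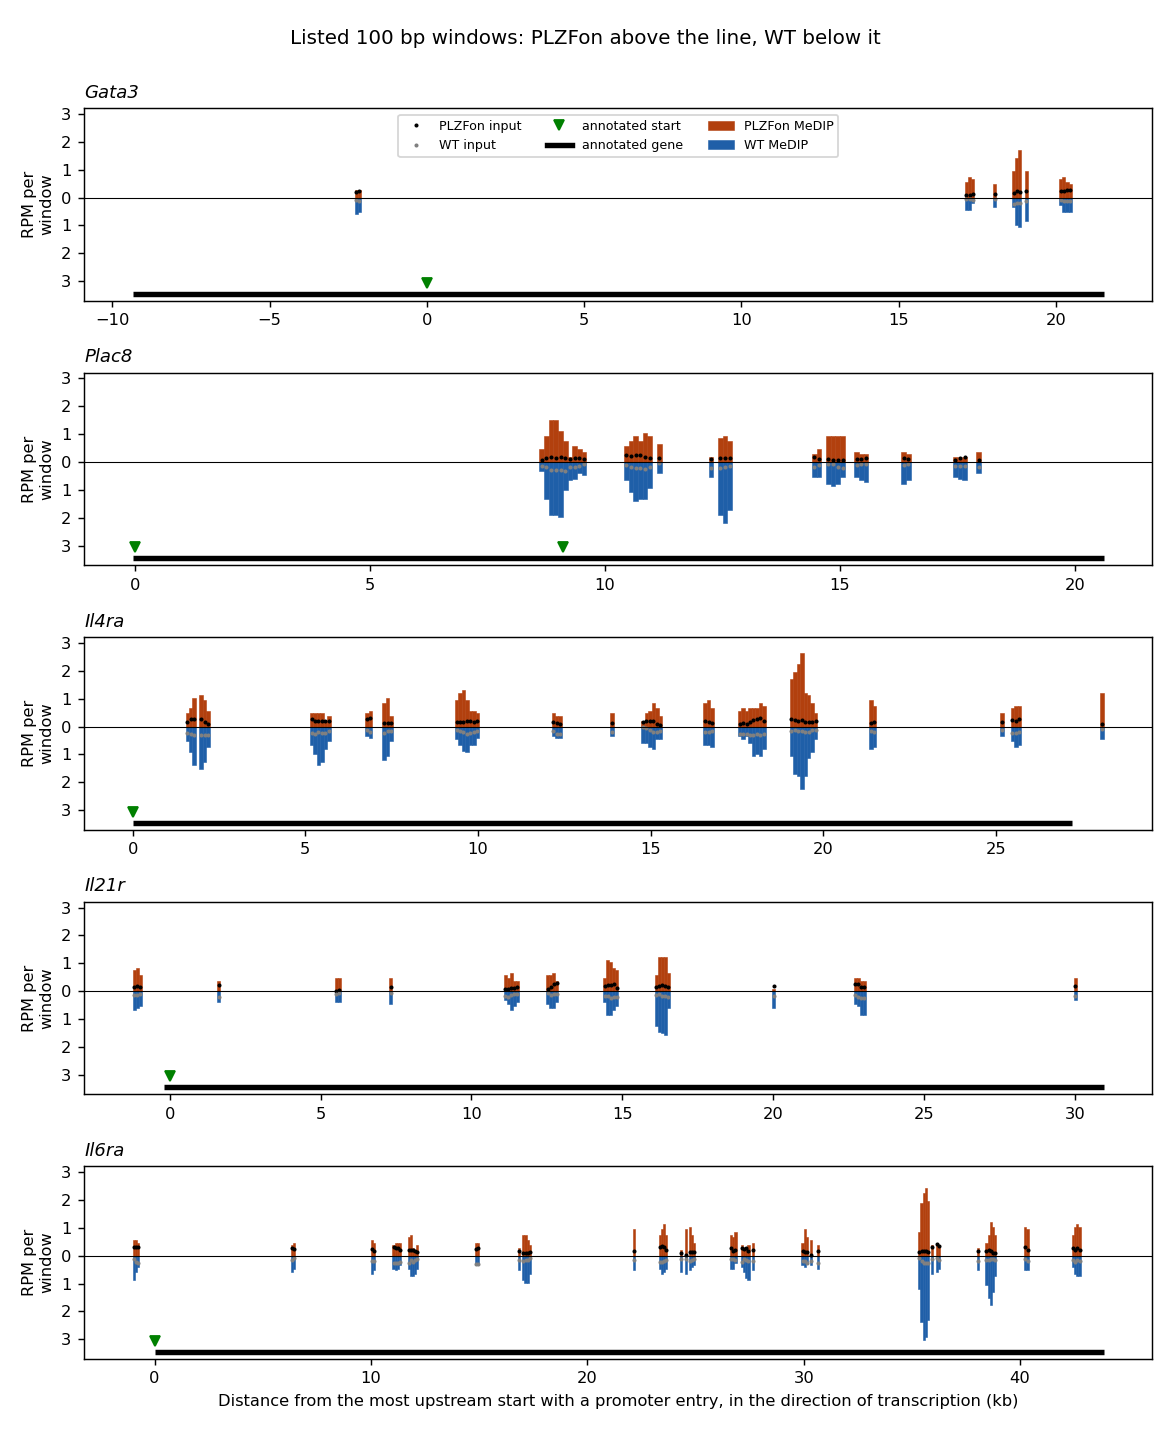
Depth-scaled reads (RPM, reads scaled to the library total) in each listed 100 bp window of the 5 genes, by distance from the most upstream start in the promoter table in kb. PLZFon MeDIP (bars) and input (dots) are drawn above the line and WT MeDIP and input below it, and gaps hold no listed window, such as the 19.2 kb around the Gata3 start.

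Plac8 (chromosome 5, 100551589 to 100572253, minus strand) had the lowest MeDIP ratio of the 5. It encodes a small cysteine-rich protein and is used as a marker of the type 2 NKT subset. All 36 of its listed windows lay downstream of 8.61 kb from the first start, and the 9653 bp from 100563601 to the end of its span, with that start, held none. There were 61.8 reads in PLZFon MeDIP and 127 in WT MeDIP, or 0.645 and 0.932 RPM per listed window, while the PLZFon and WT inputs had 0.144 and 0.164. The ratio was 0.692 (0.502 to 0.946).

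Among the 5 loci, only Plac8 had a MeDIP ratio whose interval left out equality. Of 7668 protein-coding loci that reached 20 reads, 5.01% had an interval below equality and 1.24% one above it, and 4.49% had a lower ratio than Plac8. The difference was less than 2-fold, a size that, with an interval that left out equality, 0.352% of loci passed downward and 0.0913% upward. The input ratio was 0.878 (0.628 to 1.22), and 0 of the 5 input intervals left out equality, where 2.67% of loci had one above it and 0.743% one below. Over listed windows, MeDIP over input was 4.48 (3.11 to 6.45) in PLZFon and 5.69 (4.31 to 7.54) in WT, with overlapping intervals. The WT value exceeded that of 90.5% of loci and the PLZFon value that of 70.2%, each locus taken over its own listed windows.

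The listed windows of Plac8 form 11 stretches of adjacent windows, of which 9 had a ratio below 1, where 53.3% of stretches over all protein-coding loci did. The share was 1 of 6 at Gata3, 6 of 16 at Il4ra, 4 of 11 at Il21r and 15 of 26 at Il6ra. The windows past the 2-fold rule formed a stretch of 300 bp (100559501 to 100559800), 12.4 to 12.7 kb from the first start. Its 3 windows had 8, 10 and 9 reads in PLZFon MeDIP against 26, 33 and 29 in WT MeDIP, whereas the inputs had 8, 8 and 8 reads in PLZFon and 8, 10 and 13 in WT. The windows are described because they passed that rule, so their low ratios are no separate result. The middle window had a ratio of 0.431 (0.190 to 0.896), the lowest of the Plac8 windows with at least 20 reads. Its neighbours had 0.438 (0.171 to 0.997) and 0.442 (0.184 to 0.959), and since the 3 share reads they are 1 observation. The stretch of these 3 windows had a ratio of 0.437 (0.155 to 1.07), an interval that includes equality. Farther downstream, the 3 windows from 100554501 to 100554800 had 2, 1 and 2 reads in PLZFon MeDIP against 10, 9 and 8 in WT MeDIP, with 10, 8 and 3 in the PLZFon input and 9, 9 and 8 in the WT input. They were named after their values were seen, and their joint ratio of 0.264 had an interval (0.0108 to 1.81) that includes equality. With 12, 10 and 10 MeDIP reads over both genotypes, they stood at or near the listing floor of 10. They reached that floor through their WT reads, so their low ratios are no separate result. This stretch is among the 9 with a ratio below 1.

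The stretch over the second Plac8 start (100562601 to 100563600) held more MeDIP reads than any other stretch of the gene. The 4 windows that meet its promoter, shown above, had 8, 12, 16 and 16 reads in PLZFon MeDIP against 15, 30, 29 and 29 in WT MeDIP. The most reads, 45, were in the window from 100563201 to 100563300 (CpG factor 5) and in that from 100563301 to 100563400. Both had a ratio of 0.786 (0.399 to 1.5). Their inputs were also uneven, with 7 and 9 reads in PLZFon and 17 and 18 in WT. The whole stretch had a ratio of 0.748 (0.419 to 1.30). The highest ratio in Plac8 among windows with at least 20 reads was 1.19 (0.459 to 3). It was found at 100557201 to 100557300 and at 100557401 to 100557500, each with 10 and 12 reads in PLZFon and WT MeDIP.

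The call on Plac8 rested on few reads. Without the bin from 100558001 to 100560000 the ratio was 0.753 (0.532 to 1.06). It was 0.697 (0.469 to 1.02) over windows with at least 20 reads and 0.695 (0.438 to 1.08) over windows with a CpG factor of at least 3. These intervals include equality.

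**Figure D3:**
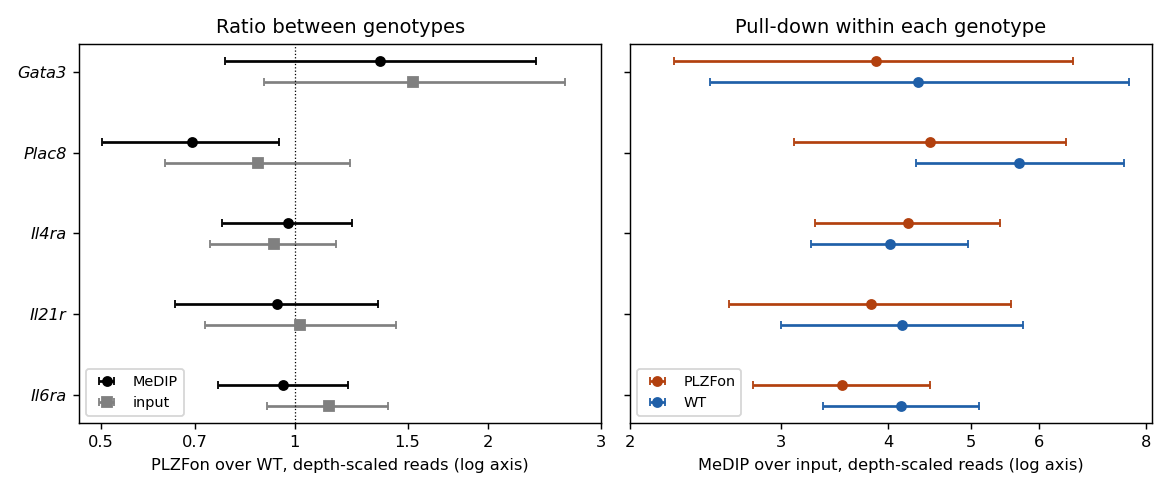
Left, the ratio of PLZFon over WT depth-scaled reads in MeDIP (circles) and input (squares) for each locus, on a log axis. Right, MeDIP over input in PLZFon and WT, over listed windows alone. Points are 1 library or pair of libraries with exact 95% counting intervals, and only the MeDIP ratio of Plac8, 0.692, has an interval that leaves out 1.

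Il4ra and Il21r are neighbours on chromosome 7. Il4ra (125552271 to 125579474, plus strand) encodes the alpha chain shared by the receptors for interleukins 4 and 13. It was the most densely listed of the 5 genes, with 60 windows of 292 (2.05 per kb). There were 125 reads in PLZFon MeDIP and 182 in WT MeDIP, a ratio of 0.975 (0.770 to 1.23), and the input ratio was 0.928 (0.739 to 1.16). The ratio lay at 1.01 with TMM factors and with totals of the listed windows, so it had no stable side of equality.

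The stretch of Il4ra with the most MeDIP reads was one of 800 bp, 19 to 19.8 kb from its start. The window with the most reads (125571601 to 125571700, CpG factor 5) had 28 reads in PLZFon MeDIP and 34 in WT MeDIP, against 12 in the PLZFon input and 9 in the WT input, a MeDIP ratio of 1.17 (0.685 to 1.99). A window nearer to the start (125557601 to 125557700, CpG factor 3) stood out downward, with 5 reads in PLZFon MeDIP and 21 in WT MeDIP, against 10 in the PLZFon input and 11 in the WT input. Its ratio was 0.339 (0.0999 to 0.924). This window is described because it passed the 2-fold rule, so its low ratio is no separate result. The stretch of 6 adjacent windows that holds it had a ratio of 0.436 (0.151 to 1.09), an interval that includes equality. The highest ratio, 2.64 (0.981 to 7.83), was in a lone window of the 3′ flank (125580301 to 125580400) with 13 reads in PLZFon MeDIP and 7 in WT MeDIP.

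Il21r (125603252 to 125634397, plus strand) encodes the receptor chain that binds interleukin 21 and signals with the common gamma chain. It had 32 listed windows of 331, none with a CpG factor above 4. There were 53.0 reads in PLZFon MeDIP and 80.2 in WT MeDIP, a ratio of 0.94 (0.652 to 1.35), and the input ratio was 1.02 (0.724 to 1.44). The window with the most reads (125619801 to 125619900) had 13 reads in PLZFon MeDIP and 24 in WT MeDIP, a ratio of 0.771 (0.361 to 1.58). Among windows with at least 20 reads the ratios ran from 0.450 (0.147 to 1.17) at 125619501 to 125619600 to 1.31 (0.548 to 3.12) at 125617901 to 125618000, all with intervals that include equality. Upstream, 0.929 to 1.23 kb before the start, 3 listed windows held 23 PLZFon and 27 WT MeDIP reads as a sum over windows.

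Il6ra (chromosome 3, 89869324 to 89913196, minus strand) encodes the interleukin 6 receptor alpha chain, which signals with gp130. The non-coding RNA gene Gm46811 overlaps its 3′ part. There were 66 listed windows of 459, with 125 reads in PLZFon MeDIP and 186 in WT MeDIP, a ratio of 0.960 (0.759 to 1.21). The input ratio was 1.13 (0.907 to 1.40). MeDIP over input was 3.53 (2.78 to 4.48) in PLZFon and 4.14 (3.36 to 5.11) in WT.

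The highest window counts of WT MeDIP among the 5 genes were in Il6ra, in a stretch of 500 bp, 35.3 to 35.8 kb from the start (89877401 to 89877900). Single windows there reached 26 reads in PLZFon MeDIP and 46 in WT MeDIP. The most reads over both, 70, were in a tied pair of windows. That from 89877501 to 89877600 had 26 in PLZFon and 44 in WT, a ratio of 0.841 (0.497 to 1.40), with 8 reads in the PLZFon input and 17 in the WT input. That from 89877601 to 89877700 had 24 in PLZFon and 46 in WT, a ratio of 0.743 (0.434 to 1.24). Among windows with at least 20 reads the lowest ratio was 0.445 (0.127 to 1.27), at 89874701 to 89874800, and the highest 1.90 (0.734 to 5.10), at 89889601 to 89889700. Nearest to the start, 0.705 to 1 kb upstream, 3 windows were listed, with highest counts of 6 in PLZFon and 13 in WT.

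Set side by side, the MeDIP ratios ran in the order Gata3 (1.36), Il4ra (0.975), Il6ra (0.960), Il21r (0.94) and Plac8 (0.692). Neighbours in this order had overlapping intervals, and so did Gata3 and Plac8 at its ends. The median over protein-coding loci was 0.959, which Il4ra, Il6ra and Il21r lay close to. In PLZFon, MeDIP over input ran from 4.48 at Plac8 through 4.22 at Il4ra, 3.87 at Gata3 and 3.82 at Il21r to 3.53 at Il6ra. In WT it ran from 5.69 at Plac8 through 4.34 at Gata3, 4.15 at Il21r and 4.14 at Il6ra to 4.02 at Il4ra. The intervals overlapped within each genotype.

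In single windows and bins the 5 genes held few differences. Of the 70 member windows that reached 20 MeDIP reads, 4 lay 2-fold or more lower in PLZFon with an interval below equality (3 in Plac8 and 1 in Il4ra), or 5.71%, against 2.17% of all such windows. None was 2-fold higher, against 1.13%. Since the Plac8 windows share reads, the 4 are 2 places. In bins of 2000 bp, 0 of 32 had an interval that left out equality in either direction, where 1.29% of bins over protein-coding loci lay below and 0.752% above. All 5 Plac8 bins had a ratio below 1, from 0.414 (0.0991 to 1.32) to 0.918 (0.440 to 1.86), and both Gata3 bins one above 1, 1.46 (0.740 to 2.89) and 1.68 (0.457 to 6.47). A ratio below 1 was found in 5 of 10 bins at Il4ra, 2 of 5 at Il21r and 6 of 10 at Il6ra, or 18 of the 32. The share of bins below 1 over all protein-coding loci was not counted, so these counts have no background here.

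**Figure D4:**
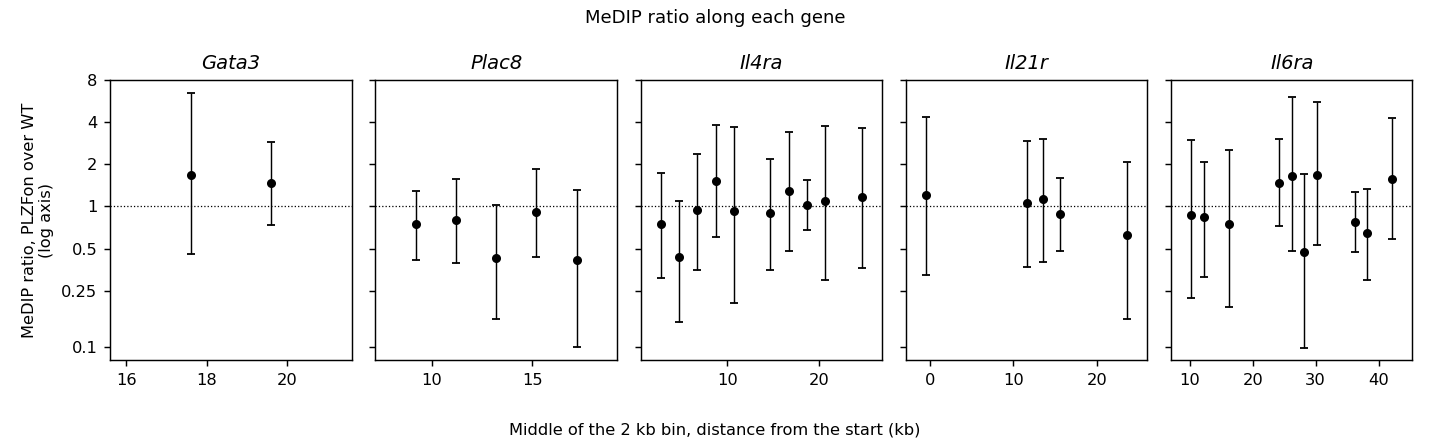
MeDIP ratio of PLZFon over WT (log axis) in bins of 2 kb with at least 10 reads, by distance from the start in kb, with exact 95% counting intervals. All 32 intervals reach equality (dotted line), and the ratios of 18 bins lie below it, among them all 5 of Plac8.

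The authors' deposited table gave no member window an adjusted p below 0.05, where 151 of all 1048575 listed windows had one. Its unadjusted p was below 0.05 in 5 of the 208 windows (2.40%), against 3.31% of all listed windows. The lowest unadjusted value for Plac8 in the authors' deposited table was 0.0277, in the middle window of the stretch described above, and its adjusted value was 1. That table gave 0.0391 for an Il21r window with 1 PLZFon and 9 WT MeDIP reads (125623401 to 125623500) and 0.0415 for the lone window of the Il4ra 3′ flank. Its lowest values for Il6ra and Gata3 were 0.0575 and 0.0769. The Il21r window stood at the listing floor of 10 MeDIP reads and reached it through its WT reads, so it is no separate result. These p-values of the authors come from 1 library a group.

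MeDIP reads were higher in the windows of the 5 genes with the most CpGs. Windows with 1 CpG averaged 0.611 RPM in PLZFon MeDIP and 0.671 in WT MeDIP, and windows with 5 or more CpGs 1.17 in PLZFon and 1.30 in WT. The rise was uneven, with 0.817 RPM in PLZFon and 0.874 in WT at 3 CpGs and 0.732 in PLZFon and 0.830 in WT at 4. The PLZFon and WT inputs had 0.170 and 0.176 RPM at 1 CpG, and 0.190 and 0.169 at 5 or more. The PLZFon over WT MeDIP ratio of the members lay between 0.882 (0.593 to 1.30) at 4 CpGs and 0.959 (0.750 to 1.22) at 2. Over all listed windows it went from 0.985 (0.982 to 0.988) at 1 CpG to 0.928 (0.924 to 0.933) at 5 or more. The members' intervals include these values.

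Other genes of the pathways were counted in 3 lists, over members in range with at least 10 reads, beside all 8095 such protein-coding loci, of which 62.3% had a ratio below 1 with a median of 0.958. The cytokine receptors had a median ratio of 0.931 over 20 loci, 13 of them below 1. The interval lay above equality at Lepr, the leptin receptor gene, and below it at Il11ra1, whose product signals with gp130 as the interleukin 6 receptor does. Lepr had 135 reads in PLZFon MeDIP and 144 in WT MeDIP, a ratio of 1.33 (1.05 to 1.7) at an input ratio of 1.01. Il11ra1 had 64.0 reads in PLZFon MeDIP and 130 in WT MeDIP, a ratio of 0.702 (0.512 to 0.955) at an input ratio of 1.15. It has near-identical copies in mouse, so its unique reads are uncertain. These are 1 of 20 in each direction, or 5%, against 1.20% above and 4.79% below over all such loci.

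The ligands and signalling genes of the receptors had a median ratio of 1 over 10 loci, and 0 had an interval that left out equality. Il2, the gene of interleukin 2, had the highest ratio, 2.31 (0.690 to 8.59), on only 8.50 reads in PLZFon MeDIP and 5.25 in WT MeDIP at an input ratio of 2.04. Among loci with at least 20 reads, Stat4, a transducer of interleukin 12 signals, was highest at 1.22 (0.955 to 1.56), and the phosphatase gene Ptpn11 lowest at 0.892 (0.773 to 1.03). Jak1, the kinase that serves the interleukin 4, 6 and 21 receptors, had 0.899 (0.722 to 1.12). The GATA3 partners and type 2 regulators had a median of 0.904 over 12 loci, 10 of them below 1. Lef1, a transcription factor gene of early T cells, alone had an interval that left out equality, at 0.571 (0.501 to 0.650), and its low ratio was known when the list was made. No locus of the 3 lists passed the 2-fold rule.

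Neighbouring genes gave a local background. Of 3 protein-coding loci within 200000 bp of Gata3, the ratios ran from 0.739 to 0.939, and of 6 around Plac8 from 0.840 (Helq) to 1.05 (Lin54), all above the Plac8 ratio. Helq, at 0.840 (0.724 to 0.973), also had an interval below equality. The 4 around Il4ra and Il21r ran from 0.916 to 1.12 and the 12 around Il6ra from 0.738 to 1.44. Of those 12, 2 had an interval below equality, Atp8b2 at 0.767 (0.627 to 0.935) and Tpm3 at 0.774 (0.620 to 0.964). Among the 7668 protein-coding loci, 5.01% had an interval below equality and 1.24% one above it. Whether these few neighbours differ from that background was not tested. Over the 4 libraries, the loci most like each gene in log2 RPM per listed window, by Euclidean distance among 7668 loci, were Mpc2 (0.17) and Ugcg (0.22) for Gata3, and Odr4 (0.07) and Pcdh18 (0.11) for Plac8. They were Rnf2 (0.05) and Col9a2 (0.06) for Il4ra, Esf1 and Dennd11 (both 0.04) for Il21r, and Gins1 (0.02) and Tmco4 (0.06) for Il6ra. These distances share depth and listing rule and describe the 4 values alone.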

How the data were processed

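Per the submitters' processing notes, BWA and edgeR were used with mm10, with no versions given, and the file headers name sorted, unique-filtered alignments. The deposited table gives raw counts of reads per 100 bp window, RPKM that the authors made from them, a relative methylation score (0 to 1) and the CpG factor score by the authors, and the authors' log2 fold changes and p-values. The table ends at position 139972600 of chromosome 7. DNA had been sonicated to a median of 180 to 230 bp, per the labels' protocols.

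Library totals were recovered from counts over RPKM and used for scaling. The squared count difference between input windows, scaled to their sum, was 1.23 (PLZFon) and 1.24 (WT) at 4 windows apart and 1.37 and 1.36 at 8, so a read was taken to reach 4 windows. This is less certain for MeDIP, where the difference kept rising. Spans, names and promoters came from RefSeq (GRCm38.p6, the same primary assembly as mm10). All 5 symbols matched, as did all symbols of the lists (28, 26 and 26), of which 20, 11 and 12 lay in range. The 2-fold rule asked for at least 20 reads, a ratio of at least 2 either way and an interval that leaves out 1. Named windows were those with the most reads, the highest and lowest ratio, any past the rule and the smallest deposited p; named list genes were those whose interval leaves out 1, or else the extremes. Jak1, Crlf2, Il2, Helq, Atp8b2, Tpm3, the 2 upstream Gata3 windows, the stretches described in Plac8, Il4ra, Il21r and Il6ra, and the windows at the second Plac8 start were named outside this rule, after their values were seen. Intervals were checked on simulated data with an independent count per locus. These held no reads shared between windows, no listing floor and no variance between libraries beyond counting, so the check does not cover them. Members, lists and rules were chosen with earlier results of these data known. Python 3.11.15, scipy 1.17.1 and edgeR 4.0.16 (TMM only) were used. No test was possible with 1 library a group.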

Additional observations from a re-analysis of the deposited data

How the results depend on the processing

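Of 128 recomputed values, 123 stayed within the counting interval of the reported one (or, for list medians, within 1 SD of the list's loci, and for counts within 1.5 times). Plac8 stayed below 1 in all of its own. The interval is wide, and the Gata3 shift from 1.36 to 1.14 lies within it. Some alternatives could not move a ratio. The filter of under 60 input reads removed no member window, and the number of windows a read reaches changes the interval alone. A flank of 0 bp left Gata3 at 1.36 and Plac8 at 0.692. Il4ra passed to 1.01 with TMM factors and to 1.05 without the bin from 125556001 to 125558000, and Il6ra to 1.03 without that from 89876001 to 89878000, all with intervals that include equality. The alternatives were TMM factors, totals of the listed windows, scaling within CpG factor classes, flanks of 0 and 5000 bp, window filters, other read minimums, folds and bins, and the number of windows a read reaches; leaving out each bin was added after seeing the data. Over windows with a CpG factor of at least 3, MeDIP over input moved to 5.83 at Il21r in WT, and to 4.49 in PLZFon and 5.86 in WT at Il6ra; the cause was not tested. With TMM factors 1 member window was 2-fold higher, and at a fold of 3 there were 0 lower windows. The Plac8 interval included equality under 3 alternatives, with ratios of 0.697, 0.695 and 0.753. No paired analysis was possible because each group has 1 library. Depth limits most values: the Gata3 interval spans 0.780 to 2.38.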

Other observations

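The authors' relative methylation score, whose making the sources used here do not describe, had a lower median in PLZFon at all 5 genes. In PLZFon its median over listed windows was 0.53 at Gata3, 0.52 at Plac8, 0.58 at Il4ra, 0.58 at Il21r and 0.55 at Il6ra. In WT it was 0.555 at Gata3, 0.62 at Plac8, 0.635 at Il4ra, 0.645 at Il21r and 0.615 at Il6ra. Over all listed windows the medians were 0.570 in PLZFon and 0.630 in WT, so the whole table shows a gap in the same direction. Where both MeDIP libraries had equal unscaled reads, the scores were equal or nearly so. At Gata3, the window from 9859801 to 9859900 had 15 reads and a score of 0.670 in each, at a depth-scaled ratio of 1.42. The score in such windows was thus not scaled to the smaller PLZFon library. The part of library size in the gap was not tested. Crlf2, a receptor chain for thymic stromal lymphopoietin, was the cytokine receptor locus of the list with the highest ratio, 2.18 (0.990 to 5), on 18.0 reads in PLZFon MeDIP and 11.8 in WT MeDIP at an input ratio of 1.88. It was chosen after its values were seen.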
